A study of Mus musculus with 21 samples.

Results

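The genes described here are the 3 D-type cyclins (Ccnd1, Ccnd2 and Ccnd3), the kinases Cdk4, Cdk6 and Cdk2, the CDK inhibitors Cdkn2c, Cdkn2d and Cdkn1b, and Rb1. They were chosen by symbol, as 10 of the 21000 genes in the count table, and all 10 were found and passed the filter on low counts in every comparison. RNA sequencing was performed on hematopoietic stem cells (HSCs) of wild-type C57BL/6 mouse bone marrow, sorted by the design text as CD150+ CD48- Lin- Sca-1+ c-Kit+ cells, in 21 libraries of 3000–3500 cells. The methods of the study add Flt3- for C57BL/6 mice unless EPCR was stained, and do not say which applied to these libraries. The study used 5-fluorouracil (5-FU), a cytotoxic antimetabolite that drives HSCs into the cell cycle, to ask how cycling HSCs differ from quiescent HSCs, and PBS as the vehicle.

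There were 7 groups with 3 libraries each. Mice that were 10 weeks old were injected intraperitoneally with PBS or with 5-FU at 150 mg/kg, either once or 3 times at intervals of 21 days, and HSCs were isolated at day 6, which is 5 days after the last administration. HSCs were also isolated at day 21, which is 20 days after 5-FU given once or 3 times, without PBS groups of their own, and from untreated mice aged 2 years, which the sample labels describe in the singular. For 5-FU-treated mice at the early time the sorting gate was widened to c-Kit-dim cells and the Mac-1 antibody was left out, so that the drug and the gate cannot be told apart at day 6. A suffix of unstated meaning marks the columns of both day 6 groups with a single administration (6 libraries) and is absent from the other 15, and comparisons across these sets cannot separate the suffix from the group.

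D-type cyclins are the regulatory partners of CDK4 and CDK6. Growth signals raise their levels, and the active kinases phosphorylate the retinoblastoma protein, the product of Rb1, which otherwise holds E2F transcription factors inactive. INK4 proteins, including p18 (Cdkn2c) and p19 (Cdkn2d), bind CDK4 and CDK6 and block them, whereas p27 (Cdkn1b) binds cyclin-CDK complexes, chiefly those of CDK2, the partner of cyclins E and A. HSCs are largely quiescent in the adult, and p18, p27 and CDK6 are known for their part in the entry of HSCs into the cell cycle.

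The positions below are on GRCm38, the build called mm10. Ccnd1 lies on the minus strand at chr7:144929931-144939925 with 5 exons in its longest coding transcript, Ccnd2 on the minus strand at chr6:127125162-127152193, and Ccnd3 on the plus strand at chr17:47505051-47599691. Cdk4 is on the plus strand at chr10:127063534-127067920, Cdk2 on the minus strand of the same chromosome at chr10:128697939-128705031, and Cdk6 on the plus strand at chr5:3341485-3531008. The inhibitors are Cdkn2c at chr4:109660876-109667189 (minus), Cdkn2d at chr9:21288410-21291407 (minus) and Cdkn1b at chr6:134920401-134925513 (plus), and Rb1 spans chr14:73183673-73325822 on the minus strand with 27 exons. The values are counts over all exons of a gene symbol and do not separate isoforms.

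Cdk4 and Cdk6 encode kinases with the same partners and moved in opposite directions after 5-FU was given once, and for this reason the 250 bases before their RefSeq start sites (GRCm38.p6, plus strand, chr10:127063285-127063534 for Cdk4 and chr5:3343643-3343892 for Cdk6) are printed, 5′ to 3′, with E-boxes (CACGTG, its own reverse complement) and GC boxes (GGGCGG or CCGCCC) in capitals.
Cdk4: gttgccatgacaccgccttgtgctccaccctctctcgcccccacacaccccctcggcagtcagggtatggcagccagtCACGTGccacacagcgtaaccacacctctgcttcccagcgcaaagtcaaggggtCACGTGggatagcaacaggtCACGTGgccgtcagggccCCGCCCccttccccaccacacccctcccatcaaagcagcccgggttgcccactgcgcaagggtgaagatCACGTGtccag
Cdk6: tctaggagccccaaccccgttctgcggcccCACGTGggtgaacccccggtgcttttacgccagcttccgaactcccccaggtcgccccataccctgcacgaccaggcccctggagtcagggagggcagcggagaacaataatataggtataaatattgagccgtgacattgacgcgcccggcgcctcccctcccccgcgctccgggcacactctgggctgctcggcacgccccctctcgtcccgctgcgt
The Cdk4 window holds 4 E-boxes and 1 GC box, and the Cdk6 window 1 E-box and no GC box. The 2 windows are not placed alike on the gene positions given above. The Cdk4 window ends at the start of its gene, whereas the Cdk6 window lies inside its gene, which starts at chr5:3341485. Among 32851 RefSeq windows of this length, 6.02% held an E-box, 7 windows (0.0213%) held at least 4, and 32.7% held a GC box. The limit of 4 is the count of the Cdk4 window itself, which is among the 7. The part of these motifs in the levels of Cdk4 and Cdk6 was not tested. Windows were matched for 7 of the 10 genes. An E2F motif (TTTCCCGC, TTTGCCGC, TTTGGCGC or TTTCGCGC on either strand, in 1.86% of the windows) was found 1 time in the window of Cdk2, and these letters are not in the windows of Cdk4 and Cdk6.

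Levels were taken as normalized CPM, counts scaled to a common library total with TMM factors over all 21 libraries. Total counts ranged from 22184885 to 38649033 per library (median 26962256), and a floor of 3 counts corresponded to between 0.0845 and 0.129 normalized CPM. The summed level of 12 HSC markers ran from 2896 to 4880 normalized CPM over the libraries. The lowest count of any of the 10 genes in any library was 156 (Cdkn1b). Divided by the length of the longest coding transcript, the median level over the libraries was highest for Ccnd3 (262 CPM per kilobase), followed by Cdk4 (133), Cdk2 (57.8), Ccnd2 (15), Cdkn2d (12.7), Cdk6 (9.79), Cdkn2c (9.05), Ccnd1 (7.26), Rb1 (2.36) and Cdkn1b (1.75). This order depends on the transcript taken for each gene. The mean levels of the 7 groups differed most for Ccnd1, whose highest group was 4.91-fold above the lowest, and Cdkn2c (4.03-fold), then for Cdk6 (2.21-fold), Rb1 (1.87-fold) and Cdk4 (1.65-fold). For Ccnd2, Ccnd3, Cdk2, Cdkn1b and Cdkn2d this range was between 1.2-fold and 1.42-fold.

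**Figure D1:**
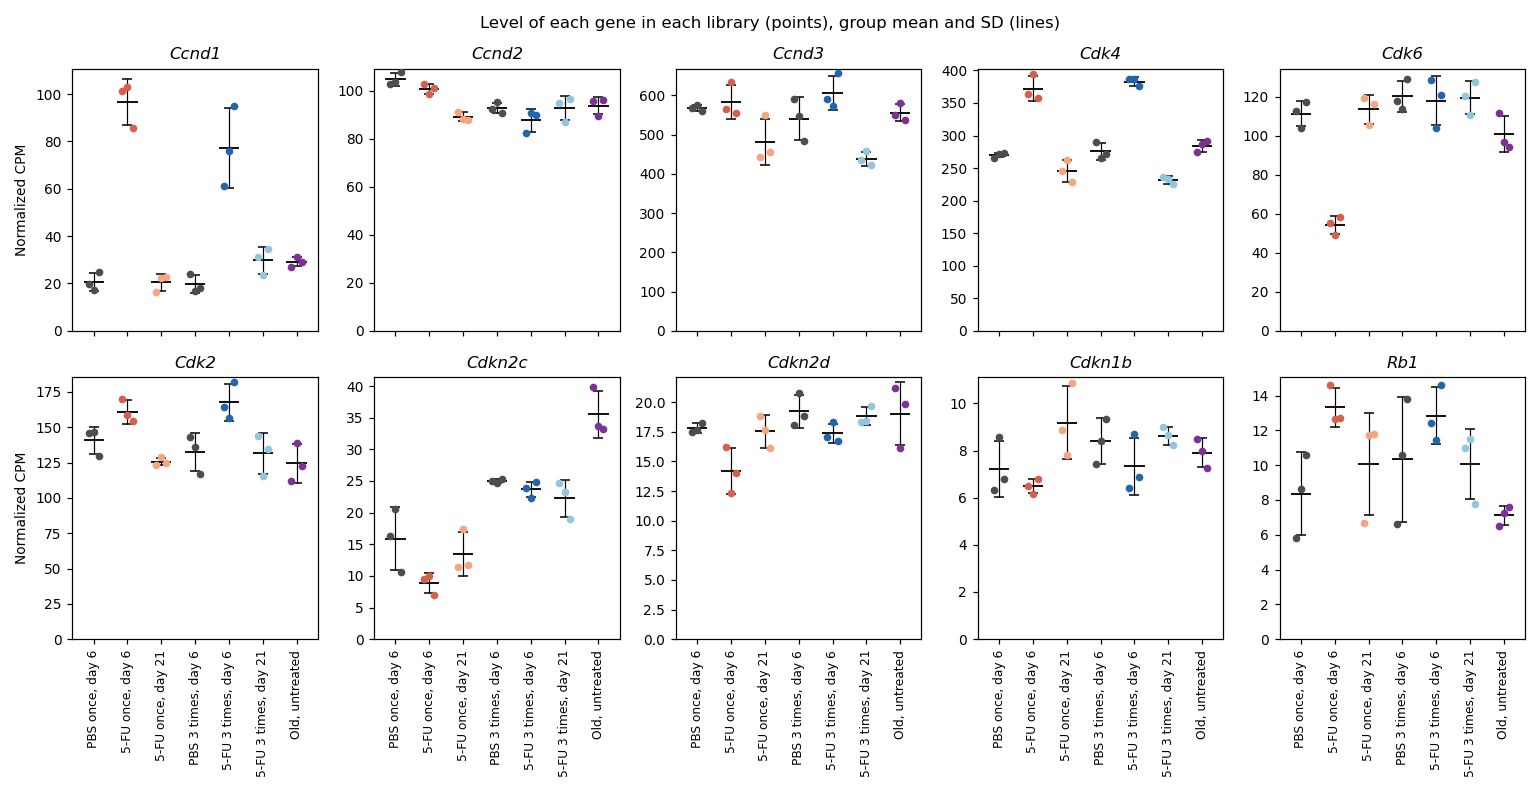
Normalized CPM (y axis, linear, from 0) of the 10 genes in each library (points), with the mean (horizontal line) and SD (vertical bar) of the 3 libraries of each of 7 groups (x axis). Ccnd1 was higher in the 6 libraries taken at day 6 after 5-FU (61.1 to 102.8) than in the other 15, and Cdk6 was lower in the 3 libraries of day 6 after 5-FU given once (49.3 to 58.4) than in the other 18.

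The first comparison, 5-FU with PBS given once and isolated at day 6, addresses what HSCs express when driven into cycle. Ccnd1 and Cdk4 rose, Cdk6 fell, and the other 7 genes did not pass the test. That is 3 of 10 genes, beside 22.2% of the 12759 genes tested (edgeR quasi-likelihood F test, Benjamini-Hochberg adjusted p under 0.05), so that the share of these genes is close to that of all genes. The groups did not overlap for 8 of the 10, beside 43.6% of all genes, and the median change was 0.00 on the log2 scale for these genes and for all genes tested.

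Ccnd1, the cyclin most closely tied to growth factor signals, had 19.9, 17.1 and 24.8 normalized CPM in the 3 libraries of PBS given once and 101.5, 102.8 and 85.5 after 5-FU. Every library of 5-FU-treated HSCs was above every PBS library, with a log2 fold change of 2.24 (SE 0.15, adjusted p = 0.000597, edgeR). Ccnd2 had 104.7 ± 2.72 with PBS and 100.7 ± 2.09 after 5-FU, without overlap but with a small difference that did not pass (SD, n = 3; log2 fold change −0.04, SE 0.06, edgeR adjusted p = 0.643). Ccnd3, the most abundant of the 3 cyclins, had 567.9 ± 7.97 and 584.1 ± 43.3 (0.05, SE 0.07, edgeR adjusted p = 0.611; n = 3). Of the summed level of the D-type cyclins per kilobase, Ccnd1 made up 1.90% ± 0.373 with PBS and 8.12% ± 0.581 after 5-FU, and Ccnd3 made up 92.4% ± 0.552 and 86.9% ± 0.734.

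Cdk4, a kinase partner of the D-type cyclins with a level per kilobase above that of Cdk6 in all groups, had 265.8, 271.4 and 272.5 normalized CPM with PBS and 364.3, 394.4 and 357.8 after 5-FU. The groups were separated, with a log2 fold change of 0.48 (SE 0.06, edgeR adjusted p = 0.00357). Cdk6, its paralog, had 112.8, 104.2 and 117.2 with PBS and 55.3, 49.3 and 58.4 after 5-FU. These groups were separated in the opposite direction (−1.02, SE 0.09, edgeR adjusted p = 0.00122). Cdk2 had 140.8 ± 9.37 and 160.8 ± 8.17, which did not overlap but did not pass the test (0.20, SE 0.08, edgeR adjusted p = 0.0937; n = 3).

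Among the inhibitors, Cdkn2c had 16.3, 20.6 and 10.7 normalized CPM with PBS and 9.51, 9.96 and 7.01 after 5-FU. The groups were separated, but the PBS libraries were spread widely and the difference missed the threshold (log2 fold change −0.83, SE 0.25, edgeR adjusted p = 0.0510). The PBS library of replicate 3 lay nearest the 5-FU libraries for Cdkn2c and for Rb1, so that leaving it out widens both differences. Without it, the edgeR adjusted p was 0.0217 for Cdkn2c and 0.0352 for Rb1 (0.90). With each library left out in turn, between 3 and 5 of the 10 genes passed. Cdkn2d had 17.8 ± 0.409 with PBS and 14.2 ± 1.96 after 5-FU (−0.32, SE 0.12, edgeR adjusted p = 0.0937; n = 3), again without overlap. Cdkn1b differed by −0.15 (SE 0.17, adjusted p = 0.582) at the lowest level of the 10 genes. Rb1, the substrate of these kinases, had 5.84, 8.62 and 10.6 with PBS and 14.6, 12.6 and 12.7 after 5-FU, separated but not past the threshold (0.69, SE 0.21, edgeR adjusted p = 0.0552).

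The second comparison is the same at day 6 after the last of 3 administrations, beside PBS given 3 times. Ccnd1 and Cdk4 rose again, and Cdk6 did not pass the test. That is 2 of 10 genes, beside 18.1% of 12729 genes tested, and the groups did not overlap for 4 of the 10, beside 39.9% of all genes. The median change was 0.06 on the log2 scale for the 10 genes and −0.01 for all genes tested.

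Ccnd1 had 24.1, 17.0 and 17.9 normalized CPM with PBS and 61.1, 76.1 and 94.9 after 5-FU. The libraries of 5-FU-treated HSCs were more spread than after a single administration but all lay above those of PBS (log2 fold change 1.97, SE 0.20, edgeR adjusted p = 0.00265). Ccnd1 was 6.40% ± 0.998 of the D-type cyclins per kilobase after 5-FU and 1.90% ± 0.259 with PBS (SD, n = 3). Ccnd2 (−0.09) and Ccnd3 (0.16) did not pass the test, with edgeR adjusted p-values of 0.467 and 0.280.

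Cdk4 had 290.7, 266.2 and 271.0 normalized CPM with PBS and 387.2, 386.1 and 375.4 after 5-FU, a log2 fold change of 0.47 (SE 0.07, edgeR adjusted p = 0.00583). Cdk6 had 118.0, 113.6 and 129.1 with PBS and 128.5, 104.1 and 121.2 after 5-FU. The Cdk6 groups overlapped (−0.03, SE 0.10, edgeR adjusted p = 0.852). Cdk2 had 132.2 ± 13.5 and 167.6 ± 13.2 (SD, n = 3), separated but with an edgeR adjusted p of 0.0622 (0.34, SE 0.10). The 3 inhibitors differed by between −0.20 and −0.08 and Rb1 by 0.31 (SE 0.26), all with overlap between the groups and edgeR adjusted p-values between 0.312 and 0.507.

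Whether the effect of 5-FU differed with the number of administrations was tested as an interaction over the 12 libraries of day 6. Cdk6 was the only one of the 10 genes to pass, beside 0.65% of 13227 genes tested. The difference between the effect after 3 administrations and that after 1 was 1.00 on the log2 scale (SE 0.14, edgeR adjusted p = 0.0149). Cdkn2c had 0.76 (SE 0.28, edgeR adjusted p = 0.219), and the other 8 genes had between −0.37 and 0.18 with adjusted p-values of 0.621 or more. The interaction of Ccnd1 was −0.26 (SE 0.27, edgeR adjusted p = 0.708) and that of Cdk4 was 0.00 (SE 0.08, edgeR adjusted p = 0.990).

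**Figure D2:**
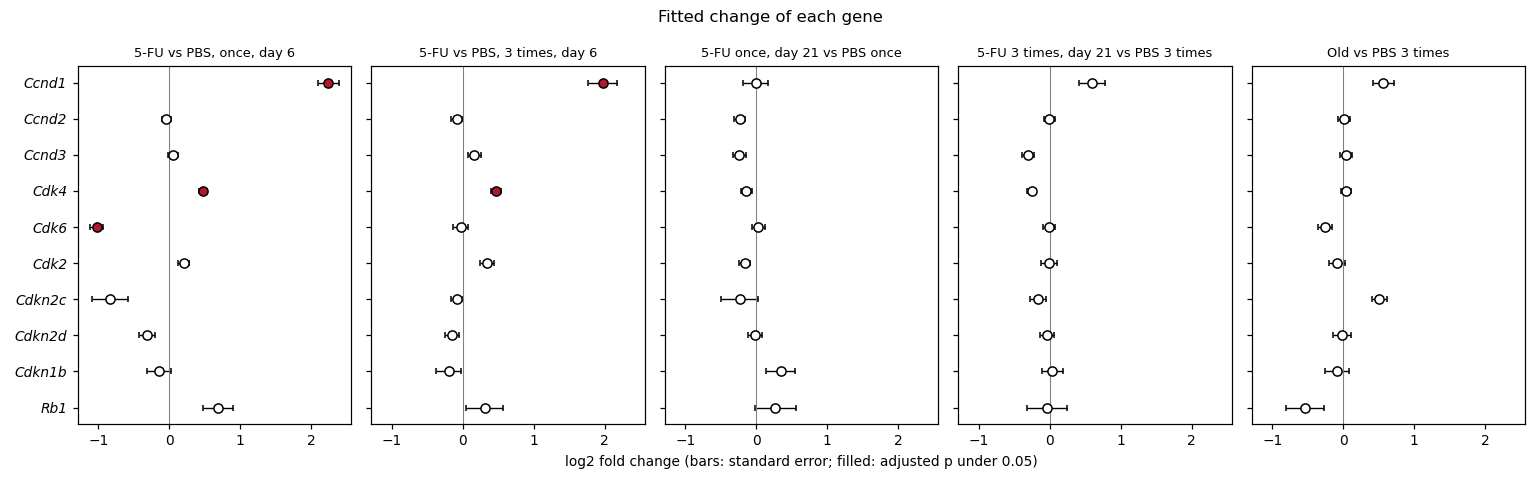
Fitted log2 fold change (x axis) of each of the 10 genes (y axis) in 5 comparisons, with bars for the standard error and filled points for an edgeR adjusted p under 0.05. Filled points are Ccnd1 and Cdk4 to the right in both comparisons at day 6, and Cdk6 to the left at −1.02 in the first of them.

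The markers of other cell types moved at day 6 as well. Of the 7 megakaryocyte markers, 4 fell after 5-FU given once and 3 after 5-FU given 3 times, and their summed level ran from 109.4 to 118.1 normalized CPM after 5-FU given once, from 173.1 to 211.2 with PBS once, from 157.3 to 166.5 after 5-FU given 3 times and from 188.4 to 199.0 with PBS 3 times. Of these markers, 2 also passed the interaction test, in the same direction as Cdk6 (Itga2b 1.2 and Gp1bb 2.35, edgeR adjusted p = 0.0149 and 0.0408). In the opposite direction, 2 of 12 HSC markers (Ly6a −0.77 and Fgd5 −1.04, edgeR adjusted p = 0.0170 and 0.0453) and 1 of 7 tested erythroid markers (Hbb-bt −1.24, adjusted p = 0.0170) passed it, and no progenitor, myeloid, lymphoid or stromal marker did in either direction. Of 14 myeloid markers, 12 and 11 were tested, 6 and 2 fell and none rose, and the summed level was 61.6 to 76.6 after 5-FU given once against 103.5 to 157.7 with PBS. The genes of the sorting markers moved in different directions. Kit fell in both comparisons (−0.86 and −0.44, edgeR adjusted p = 0.00111 and 0.00701), and Ly6a, the gene of Sca-1, rose after 5-FU given once (1.01, edgeR adjusted p = 0.00137) and had 0.23 after 3 times (adjusted p = 0.0777). Slamf1, the gene of CD150, had 0.26 in each (adjusted p = 0.0994 and 0.166), and Cd48, selected against in the sort, rose in both (0.82 and 1.90, adjusted p = 0.0262 and 0.00374).

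With Cd48, all 3 multipotent progenitor markers passed in both comparisons, as Flt3 fell by 1.97 and 1.18 (edgeR adjusted p = 0.00550 and 0.0120) and Cd34 fell by 0.68 and 0.71 (edgeR adjusted p = 0.00351 and 0.00668). The summed level of these 3 was 215.7 to 228.1 normalized CPM after 5-FU given once against 324.2 to 392.2 with PBS, and 256.2 to 316.2 against 421.6 to 463.5 for 3 times. Of the 12 HSC markers, 3 rose and 2 fell after 5-FU given once, and 1 rose and 5 fell after 3 times, with a summed level of 3374 to 3528 against 4185 to 4628 with PBS, and 2896 to 2994 against 4042 to 4399. Of 8 erythroid markers, 6 were tested in each, 1 and 2 rose and 2 and 1 fell. Of 7 stromal and endothelial markers, 4 and 6 were tested, 1 and 0 fell and none rose. The 1 that fell was Cxcl12 (−4.88, edgeR adjusted p = 0.00462), with 16.6, 69.6 and 40.9 normalized CPM with PBS once and 1.25, 2.57 and 0.417 after 5-FU once. The interaction of Cxcl12 was 7.15 (SE 1.77), in the direction of Cdk6 but not past the threshold (edgeR adjusted p = 0.0824). Of 12 lymphoid markers, 3 were tested in each, 0 and 1 of them fell and none rose, Rag1 was at 0 in every library, and Pax5 and Cd3e had at most 0.0363 normalized CPM in any. The part of these markers in the values of Cdk6 and the other genes was not tested, and in bulk libraries fewer cells of a type and less RNA per cell cannot be told apart.

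Ratios of counts within a library do not depend on the scaling between libraries. The Cdk6/Cdk4 ratio was 0.413 ± 0.0250 with PBS once and 0.147 ± 0.0197 after 5-FU once, a difference of −1.50 on the log2 scale (SE 0.13), and 0.436 ± 0.0363 and 0.308 ± 0.0337 with PBS and 5-FU given 3 times (−0.51, SE 0.12; n = 3 each). Both pairs of groups were separated (two-sided exact permutation p = 0.1 for each, which is the smallest that 20 assignments can give, so that 3 libraries against 3 cannot reach 0.05). Per kilobase, Cdk6 was 6.85% ± 0.387 of the sum of Cdk4 and Cdk6 with PBS once, 2.55% ± 0.333 after 5-FU once and 5.20% ± 0.541 after 5-FU 3 times. These shares rest on longest coding transcripts of 11525 bases for Cdk6 and 2053 for Cdk4, whereas the ratios of counts do not. The Ccnd1/Ccnd2 ratio was 0.196 ± 0.0323 with PBS once and 0.959 ± 0.103 after 5-FU once, and 0.212 ± 0.0432 and 0.879 ± 0.160 when given 3 times. These groups were separated too, by 2.30 and 2.06 on the log2 scale (exact permutation p = 0.1 for each). The Cdkn2c/Cdkn2d ratio overlapped between 5-FU and PBS in both comparisons at day 6 (−0.48 and 0.06, exact permutation p = 0.3 and 0.5).

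**Figure D3:**
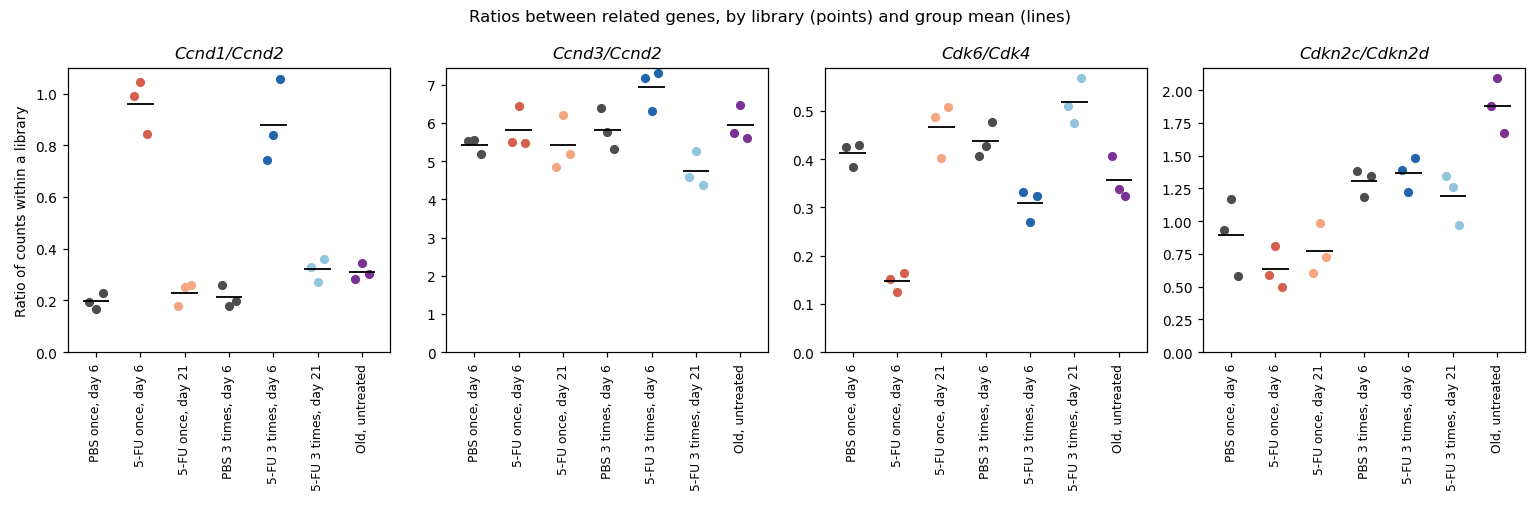
Ratio of counts within a library (y axis, linear, from 0) for 4 pairs of related genes, in each library (points) of the 7 groups (x axis), with the group mean as a line. The Cdk6/Cdk4 ratio lies between 0.125 and 0.163 in the 3 libraries of day 6 after 5-FU once and between 0.270 and 0.332 after 5-FU 3 times, and the Cdkn2c/Cdkn2d ratio is highest in old HSCs (1.67 to 2.09).

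The state at day 21 was compared with PBS and with day 6. Beside PBS at day 6, none of the 10 genes passed the edgeR test after 5-FU given once (2 at an unadjusted p under 0.05, and 1, Ccnd2, with DESeq2) or 3 times (3 unadjusted, and 2, Ccnd3 and Cdk4, with DESeq2). In the same comparisons 0.221% of 12647 and 0.0475% of 12632 genes passed, so that a count of 0 of 10 is close to the background. The groups did not overlap for 4 and 3 of the 10 genes, beside 21.1% and 21.4% of all genes. The comparison after a single administration also runs across the column suffix.

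Beside day 6 after 5-FU, Ccnd1 and Cdk4 were lower at day 21 after 1 and after 3 administrations. After 5-FU given once, Ccnd1 fell by 2.25 on the log2 scale (SE 0.15, edgeR adjusted p = 0.00059) to 16.4, 22.2 and 22.8 normalized CPM, and Cdk4 fell by 0.62 (SE 0.08, edgeR adjusted p = 0.0029) to 244.9, 262.4 and 228.9. Cdk2 fell by 0.37 (SE 0.07, edgeR adjusted p = 0.0123). Cdk6 rose by 1.05 (SE 0.10, edgeR adjusted p = 0.00125) to 119.3, 105.4 and 116.1 normalized CPM, which overlapped the level with PBS. These are 4 of 10 genes, beside 26% of 12589 tested. The 2 groups did not overlap for 9 of the 10 genes (Cdkn2d overlapped), beside 46.1% of all genes, and the groups also differ in the gate and the suffix.

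After 3 administrations, Ccnd1 fell by 1.39 (SE 0.20, edgeR adjusted p = 0.00449) to 31.1, 23.6 and 34.7 normalized CPM, Cdk4 fell by 0.73 (SE 0.07, edgeR adjusted p = 0.00115) to 236.9, 233.0 and 225.0, and Ccnd3 fell by 0.48 (SE 0.08, edgeR adjusted p = 0.0083). Ccnd3 then had 435.5, 457.1 and 421.5 normalized CPM at day 21, below each of the 3 PBS libraries (591.0, 547.8 and 483.6). These are 3 of 10 genes, beside 19.5% of 12553 tested, and the groups did not overlap for 4 of the 10, beside 41.1% of all genes. Cdk6 differed by 0.01 (SE 0.11, edgeR adjusted p = 0.957).

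Ccnd1 at day 21 after 3 administrations was 29.8 ± 5.68 (SD, n = 3), and all 3 libraries lay above those at day 21 after 1 administration (20.5 ± 3.54), although neither this difference (log2 fold change 0.54, SE 0.18, edgeR adjusted p = 0.692) nor that from PBS (0.59, SE 0.19, adjusted p = 0.251, with overlap) passed the test. Between the 2 groups of day 21, none of the 10 genes passed with edgeR (2 at an unadjusted p under 0.05, and 0 with DESeq2), beside 0.00802% of 12474 genes, and Ccnd1 and Cdkn2c were the 2 of 10 without overlap, beside 12.5% of all genes.

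Old HSCs were compared with HSCs of mice given PBS 3 times. None of the 10 genes passed with edgeR (3 at an unadjusted p under 0.05, and 1, Cdkn2c, with DESeq2), beside 0.996% of 12847 genes, and the groups did not overlap for 3 of the 10 (Cdkn2c, Ccnd1 and Cdk6), beside 16.9% of all genes. Cdkn2c, the gene of p18, had its highest levels of any group in old HSCs, at 39.8, 33.7 and 33.2 normalized CPM, and 25.0, 24.6 and 25.3 with PBS. Every old library was above every other library, but the adjusted p was 0.0883 with edgeR (log2 fold change 0.51, SE 0.10) and 0.00382 with DESeq2. Beside PBS given once the difference was 1.17 (SE 0.22, edgeR adjusted p = 0.0441). Among the markers, Flt3 fell by 1.22 and Cd34 by 0.61 in old HSCs beside PBS 3 times (edgeR adjusted p = 0.00799 and 0.0282), the megakaryocyte marker Vwf rose by 0.90 (edgeR adjusted p = 0.0103), and no marker of the other lists passed. Their part in the level of Cdkn2c was not tested. The Cdkn2c/Cdkn2d ratio was 1.88 ± 0.210 in old HSCs and 1.31 ± 0.105 with PBS 3 times (separated, 0.53 on the log2 scale, exact permutation p = 0.1; n = 3).

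The level of Cdkn2c also differed between the control groups, from 15.9 ± 4.99 with PBS once to 25.0 ± 0.340 with PBS 3 times (SD, n = 3), and the groups did not overlap, but the difference was not past the threshold (0.66, SE 0.22, edgeR adjusted p = 0.287). In order of mean level, old HSCs were followed by PBS 3 times, 5-FU 3 times at day 6 and at day 21, PBS once, 5-FU once at day 21 and 5-FU once at day 6. Old HSCs did not overlap the next group, 5-FU once at day 6 did not overlap the group above it, and all other neighbours in this order overlapped. None of the 10 genes passed between the PBS groups with edgeR (2 at an unadjusted p under 0.05, and 0 with DESeq2), beside 0.0156% of 12806 genes, and Cdkn2c and Ccnd2 were the 2 of 10 without overlap, beside 20.2% of all genes. Ccnd1 in old HSCs was 27.2, 31.0 and 29.2 normalized CPM, above the 3 PBS libraries (log2 fold change 0.57, SE 0.15, edgeR adjusted p = 0.166), and Cdk6 was 111.7, 96.9 and 94.5, below them (−0.25, SE 0.10, edgeR adjusted p = 0.398).

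The order of the group means was as follows for the other genes. For Ccnd1 the groups of day 6 after 5-FU came first, and the next neighbours overlapped except at the gap from 5-FU 3 times at day 6 to 5-FU 3 times at day 21 and from old HSCs (29.1 ± 1.94) to PBS once (20.6 ± 3.88; SD, n = 3). For Cdk4 the groups of day 6 after 5-FU (382.9 ± 6.56 for 3 times and 372.2 ± 19.5 for once) lay above old HSCs (284.1 ± 8.85) without overlap, PBS once did not overlap 5-FU once at day 21 (245.4 ± 16.8), and the other neighbours overlapped. For Cdk6 the 6 groups other than 5-FU once at day 6 overlapped from neighbour to neighbour, from 120.3 ± 8.01 with PBS 3 times to 101.0 ± 9.29 in old HSCs. Ccnd2 was highest in the 2 groups whose columns carry the suffix, PBS once and 5-FU once at day 6, each without overlap with the next, and lay between 82.1 and 96.5 normalized CPM in every library of the other 5. For Cdk2 the only neighbours without overlap were 5-FU once at day 6 and PBS once, and for Cdkn2d they were 5-FU 3 times at day 21 and PBS once, and 5-FU 3 times at day 6 and 5-FU once at day 6. For Ccnd3, Cdkn1b and Rb1 every pair of neighbours overlapped, with group means from 438.0 to 606.5 for Ccnd3, from 6.49 to 9.19 for Cdkn1b and from 7.12 to 13.3 for Rb1.

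The other genes of the pathway were taken from 6 lists with 45 genes, of which 43 passed the filter on low counts. At day 6, 26 rose and 2 fell after 5-FU given once, and 29 rose and 3 fell after 5-FU given 3 times, beside 11.5% of all genes higher and 10.6% lower in the first comparison, and 9.84% and 8.3% in the second. The median change of the 43 was 0.36 and 0.55 on the log2 scale, and that of all genes tested −0.00 and −0.01.

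Of the 15 genes that E2F factors activate for S phase, 11 rose after 5-FU given once and 14 after 5-FU given 3 times, and none fell. Cdc6, which loads the replicative helicase, rose by 0.84 (SE 0.10, edgeR adjusted p = 0.0027) from 96.0 ± 9.42 to 170.2 ± 14.8 normalized CPM after 5-FU given once, and Mcm5, a helicase subunit, by 0.72 (SE 0.09, edgeR adjusted p = 0.00346). Rrm2, a subunit of ribonucleotide reductase, rose by 0.71 and 0.85 (edgeR adjusted p = 0.00363 and 0.00219) in the comparisons of 1 and 3 administrations. Tk1, thymidine kinase, rose by 1.00 (edgeR adjusted p = 0.00283) after 3 administrations. Mki67, the gene of the proliferation antigen Ki67, rose by 0.96 (SE 0.20, edgeR adjusted p = 0.0199) after 3 administrations, whereas after 1 it differed by 0.26 (SE 0.10, adjusted p = 0.0922). The difference between these changes of Mki67 was not past the threshold (interaction 0.71, SE 0.24, edgeR adjusted p = 0.184).

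Of the 4 genes for cyclins E and A and Cdk1, 3 and 4 rose, and Ccne2, a cyclin E partner of Cdk2, rose by 1.35 (SE 0.14, edgeR adjusted p = 0.00282) after 3 administrations, from 46.7 ± 7.19 to 119.7 ± 15.8 normalized CPM. Of the 10 E2F and DP factors, 4 and 5 rose and 1 fell in each comparison. Tfdp1, a DNA-binding partner of E2F proteins, rose by 0.65 and 0.90 (edgeR adjusted p = 0.00255 and 0.00277), and Tfdp2, its paralog, fell by 0.50 after 5-FU given once (SE 0.05, edgeR adjusted p = 0.00176). Tfdp2 was the 1 gene of the 43 to pass the interaction test (0.67, SE 0.12, edgeR adjusted p = 0.0340). Of the 9 genes for CDK activation and p27 turnover, 5 and 4 rose. Skp2, which marks p27 for degradation, rose by 1.02 and 0.93 (edgeR adjusted p = 0.000935 and 0.00225), from 32.3 ± 2.32 to 64.9 ± 1.49 normalized CPM after 5-FU given once, while the Cdkn1b message had 7.23 ± 1.19 and 6.49 ± 0.304.

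Of the 2 other pocket proteins, the relatives of Rb1, Rbl1 rose and Rbl2 fell in both comparisons. Of the 5 other CDK inhibitors, 3 were tested. After 5-FU given once, Cdkn1a, the gene of p21, rose by 1.44 and Cdkn3 by 0.94 (edgeR adjusted p = 0.00385 and 0.0297). Cdkn1c then had −0.29 (edgeR adjusted p = 0.143). After 5-FU given 3 times, Cdkn3 rose by 1.08 and Cdkn1c fell (−0.77; edgeR adjusted p = 0.00839 and 0.0277). Cdkn1a had 0.97 and did not pass (edgeR adjusted p = 0.059). Cdkn2a and Cdkn2b, the INK4 genes that were not tested, had mean levels of at most 0.1 normalized CPM in every group. At day 21 beside day 6, 2 of the 43 rose and 32 fell after 5-FU given once and also after 5-FU given 3 times, beside 12.3% higher and 13.7% lower, and 8.68% and 10.8%, of all genes. Cdkn1a, which had risen at day 6, fell by 2.67 (SE 0.23, edgeR adjusted p = 0.000998) from there to day 21 after 5-FU given once. Its level at day 21 differed by −1.22 from PBS given once (SE 0.35, edgeR adjusted p = 0.195). E2f7 fell by 2.25 (SE 0.17, edgeR adjusted p = 0.000636) from day 6 to day 21 after 5-FU given 3 times. Beside PBS, none of the 43 passed at day 21 with edgeR (20 after 1 and 8 after 3 administrations at an unadjusted p under 0.05, and 9 and 3 with DESeq2).

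**Figure D4:**
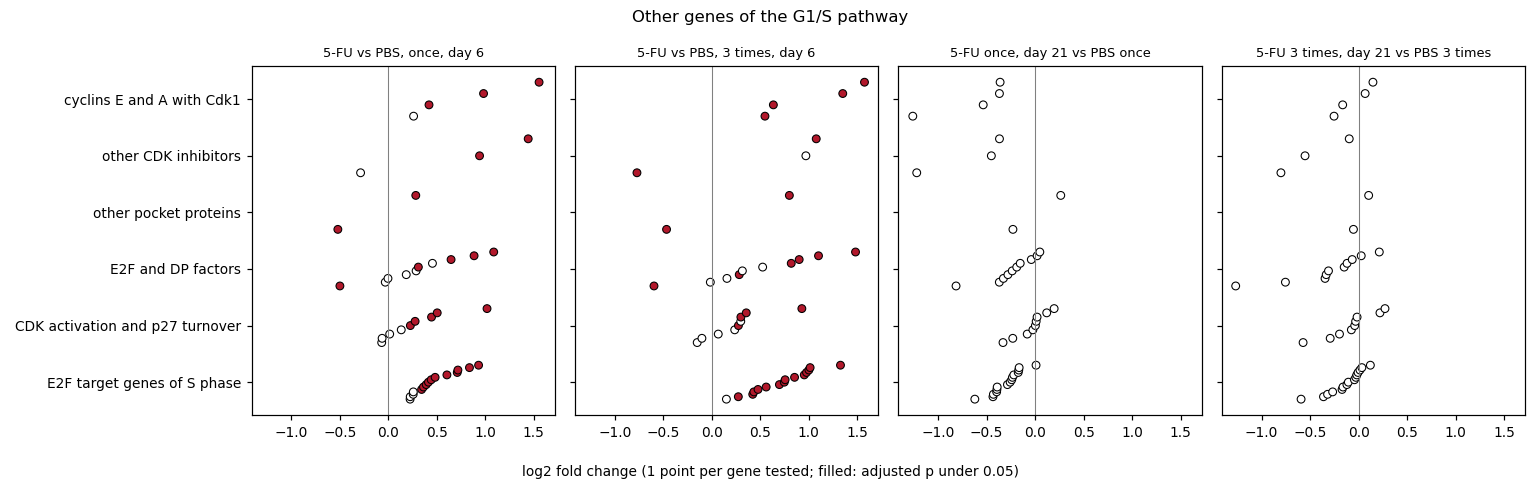
Fitted log2 fold change (x axis) of each tested gene (1 point) of 6 pathway lists (y axis) in 4 comparisons, with filled points for an edgeR adjusted p under 0.05. At day 6, 26 and 29 of 43 points are filled on the right, and no point is filled at day 21.

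The genes whose profile over the 21 libraries was nearest to each member were sought among 10490 genes with a mean of at least 5 CPM, by the root mean square difference of mean-centred log2 normalized CPM. A member of low spread has near neighbours for that reason alone, so the spread of the member is given with it. The nearest to Ccnd1 (SD 0.90) were Lmna (0.33) and Hmga1b (0.42), to Cdk4 (SD 0.26) Rbmxl1 (0.06) and Psme2 (0.08), to Cdk6 (SD 0.39) Nkg7 (0.14) and Serpinb1a (0.18), and to Cdkn2c (SD 0.66) Aldh1a1 (0.36) and Gadd45g (0.37). For Rb1 (SD 0.41) they were Gatad2a and Carm1, for Cdk2 Lta4h and Angel2, for Ccnd2 Rrp1 and Ppif, for Cdkn1b Chpf2 and Cnppd1, and for Cdkn2d Bcl10 and Cdc40. The nearest to Ccnd3 were Nedd4 and Bysl.

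Whether the counting used strand is not stated. Bysl shares exonic bases with Ccnd3 on the opposite strand (4.11% of the exonic bases of Ccnd3), so that reads there cannot be told apart. The shared part was larger for Ccnd1 (23.4%, with LTO1), Cdk4 (19.7%, with Tspan31), Rb1 (14.9%, with Lpar6 and Rcbtb2) and Ccnd2 (7.9%, with 9330179D12Rik and Gm43126). It was smaller for Cdk6 (2.63%, with Gm17590) and Cdk2 (0.547%, with Pmel), and none was found for Cdkn1b, Cdkn2c and Cdkn2d. LTO1 differed by 0.19 and 0.14 and Tspan31 by 0.08 and −0.05 on the log2 scale between 5-FU and PBS given once and 3 times, none past the threshold (edgeR adjusted p = 0.230 and 0.568, and 0.485 and 0.753). Ccnd3 also has a near copy, Ccnd3-ps, with 96.3% identity over 881 bases, and its level is uncertain to that extent.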

How the data were processed

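RNA sequencing reads of 21 libraries (SMART-Seq v4, Nextera XT, single-end, 75 bases) were aligned by the authors with TopHat2 2.0.13 to mm10 with iGenomes annotation and quantified with Cuffdiff of Cufflinks 2.2.1. The authors deposited whole-number counts per gene symbol, without normalization, and the program that made these counts is not given in the sources used here. Groups and replicate numbers come from the sample labels, and replicates are independent experiments by the study's methods. The members and gene lists were chosen with earlier results of these data known.

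Counts were analysed in R 4.3.3 with edgeR 4.0.16. For each comparison of 3 with 3 libraries, genes were kept by filterByExpr, scaled by TMM and tested with the quasi-likelihood F test, with Benjamini-Hochberg adjustment over all genes kept and a threshold of 0.05. The interaction was fitted over 12 libraries. The standard error is the fold change divided by the square root of F. Log2 ratios of counts within a library were compared with exact two-sided permutation tests. Genes were named by rule: all 10 members, up to 6 pathway genes past the threshold with the smallest adjusted p in each comparison, Mki67, and the 2 nearest profiles of each member. Marker genes, Kit, Ccnd3-ps, and genes sharing exonic bases were named for the results they touch, after their values were seen. Rbl1, Rbl2, Cdkn1a, Cdkn1c, Cdkn3, Cdkn2a and Cdkn2b were named as the whole of short lists, also after their values were seen. Positions come from GENCODE vM21 on GRCm38, and promoter windows from RefSeq on GRCm38.p6.

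Alternatives were RLE size factors, library size alone, DESeq2 1.42.0, other filters, 1 fit of all 21 libraries, a replicate block, other PBS controls, counts not divided by length, and leaving out each library. The steps were tested on simulated counts. Total counts bound the counting error only, and reads carry no molecular identifiers.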

Additional observations from a re-analysis of the deposited data

Results flagged for a closer look

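Cdk6 is given for a closer look because its response to 5-FU at day 6 was not the same after 1 and 3 administrations, differing by 1.00 on the log2 scale in the test of the interaction (edgeR, adjusted p = 0.0149). Cdk6 fell by 1.02 after 5-FU given once and differed by −0.03 after 5-FU given 3 times. The difference was past the threshold in all 19 alternatives run, between 0.92 and 1.09, with an adjusted p of at most 0.0417. The 6 libraries of the single administration carry the column suffix and the 6 of the repeated one do not, so that suffix and number of administrations cannot be told apart. The age of the mice at isolation may also differ with the number of administrations. Cdk6 also matches stretches in transcripts of other genes (74 genes, over at least 75 bases at 95% identity or more, the longest 233 bases). Among them is Gm17590 (112 bases), which overlaps Cdk6 on the opposite strand.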

How the results depend on the processing

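Of 100 values for a gene in a comparison, 61 were more than 1 standard error from 0. Under the alternatives these gave 846 values, of which 817 kept their direction and their side of the threshold, 28 newly passed, 0 lost the call, and 1 turned its direction: Cdkn2c at day 21 after 3 administrations had 0.49 with PBS once as the control. For the 39 values closer to 0, 64 of 554 alternative values turned their sign, and 0 of the 39 were called.

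With DESeq2, the genes called were 5 for 5-FU with PBS once at day 6 (Cdkn2c and Rb1 added), 1 and 2 for day 21 with PBS after 1 and 3 administrations, and 1 for old HSCs. In the fit over all 21 libraries they were 1 (Cdk4) for day 21 with PBS after 3 administrations and 8 for day 21 with day 6 after 1, and with PBS once as the control 1 (Cdkn2c) for old HSCs. Leaving out 1 library gave 3 to 5 genes for 5-FU with PBS once. For the log2 ratios it gave −0.0348 to 0.0981 for Ccnd3/Ccnd2 in old HSCs and −0.00309 to 0.142 for Cdkn2c/Cdkn2d at day 6 after 3 administrations.

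Counts over all genes changed more. With DESeq2, 726 genes passed in place of 28 and 573 in place of 6 for day 21 with PBS, 156 in place of 1 between the groups of day 21, 557 in place of 128 for old HSCs, 531 in place of 2 between the PBS groups and 693 in place of 86 for the interaction. The cause was not tested. Leaving out 1 library gave 1 to 32 and 1 to 4 for day 21 with PBS after 1 and 3 administrations, 20 to 76 for old HSCs and 38 to 170 for the interaction. It gave 1563 to 1947 in place of 2827 and 1231 to 1582 in place of 2310 for 5-FU with PBS at day 6 given once and 3 times, and 1736 to 2978 in place of 3272 and 1351 to 1744 in place of 2450 for day 21 with day 6. These counts are the base of the shares of all genes set beside those of the 10 genes, and the fits have 1 library less.

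Libraries with the same replicate number had correlations of their deviations between −0.0628 and 0.135, and in 0 of 9 comparisons was every pair over 0.1, so that the numbers were not used as pairs. With the replicate block, 4 genes were called in place of 3 for 5-FU with PBS once, 5 in place of 4 for day 21 with day 6 after 1 administration, and the interaction of Cdk6 was 1.00 (adjusted p = 0.0317).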
